A study of Mustela putorius furo and Mus musculus with 4 samples.

Results

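Glucocorticoids are steroid hormones that cross the cell membrane and act through nuclear receptors. In the cell, 11-beta-hydroxysteroid dehydrogenase type 1, the product of Hsd11b1, regenerates the active hormone from its inert 11-keto form, and the type 2 enzyme, the product of Hsd11b2, does the reverse. The active hormone binds the glucocorticoid receptor (Nr3c1) and, with higher affinity, the mineralocorticoid receptor (Nr3c2), and the bound receptor moves to the nucleus and switches on target genes. Astrocytes are among the brain cells known to respond to these hormones.

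The 10 genes described here were fixed by name as 2 activating and inactivating enzymes (Hsd11b1 and Hsd11b2), 2 receptors (Nr3c1 and Nr3c2) and 6 target genes (Fkbp5, Tsc22d3, Per1, Sgk1, Zbtb16 and Errfi1). They belong to 13373 gene symbols with a value in both species, apart from Errfi1, for which a mouse value alone was analysed here. Each of the 10 symbols had a single row in every library that held it. Of the 9 genes with values in both species, 8 had a mean of at least 1 FPKM in at least one species and were tested together with all 10204 genes that met this limit, and Hsd11b1 did not meet it. FPKM, fragments scaled to gene length and to the mapped fragments of the library, is divided by gene length, so levels of different genes can be set side by side within a library.

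Primary cortical astrocytes were compared between sable ferrets (2 libraries, postnatal day 1) and ICR mice (2 libraries, postnatal day 1 to 3). The labels name no introduced allele or transgene, and the sex of the pups was not given in the sources used here. Both species were grown as mixed glia in serum for 14 days, shaken, replated, moved on day 3 to serum-free medium and harvested on day 7, after 4 days without serum. The serum-free medium of both groups held progesterone and heparin-binding EGF-like growth factor, and its recipe names no glucocorticoid. Cells of 1 ferret pup filled several flasks, whereas several mouse pups shared 1 flask, and nothing says whether the 2 libraries of a species came from separate cultures, so the p-values measure the spread between these libraries, which may be technical. Species, gene annotation and culture cannot be told apart in this design.

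The plot of the genes by library shows 3 tested genes that stood apart between the species. Sgk1 and Nr3c1 were lower in ferret than in mouse astrocytes, Hsd11b2 was higher, and the other 5 tested genes differed by less than 1 on the log2 scale. Of the 8 genes tested, 1 was called higher and 2 lower in ferret astrocytes, where a call is an adjusted p under 0.05 by limma with an absolute log2 difference above 1. Across all genes tested, 13.1% were called higher and 30.1% lower (43.2% together), so the members' shares of 12.5% and 25% were near the background. At an adjusted p alone, 3 members were higher and 4 lower, against 32.4% and 56.2% of all genes (88.6% together). The median log2 difference of the 8 members was -0.11, against -0.35 over all genes tested. The libraries of the 2 species did not overlap for 8 of the 9 members with values in both, and for 94.1% of all genes tested. With 2 libraries a side, an exact two-sided permutation test of one gene cannot go below p = 0.333, so genes were tested by limma over the whole table.

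The summed FPKM differed between the species. Over the shared symbols the libraries added up to 227391 and 236543 FPKM in ferret replicates 1 and 2, and to 300465 and 308122 in mouse replicates 1 and 2. The fits were repeated with 3 other scalings, in which every library was set to a common total of 1000000 FPKM, set to the average of the 4 totals, or given the same distribution by quantile normalization. The first 2 of these give the same ratios between libraries and differ only through the 1 added to FPKM before the log2. The median of all genes moved from -0.35 to -0.01, -0.01 and 0.05. That of the 8 members moved from -0.11 to 0.28, 0.26 and 0.30.

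**Figure D1:**
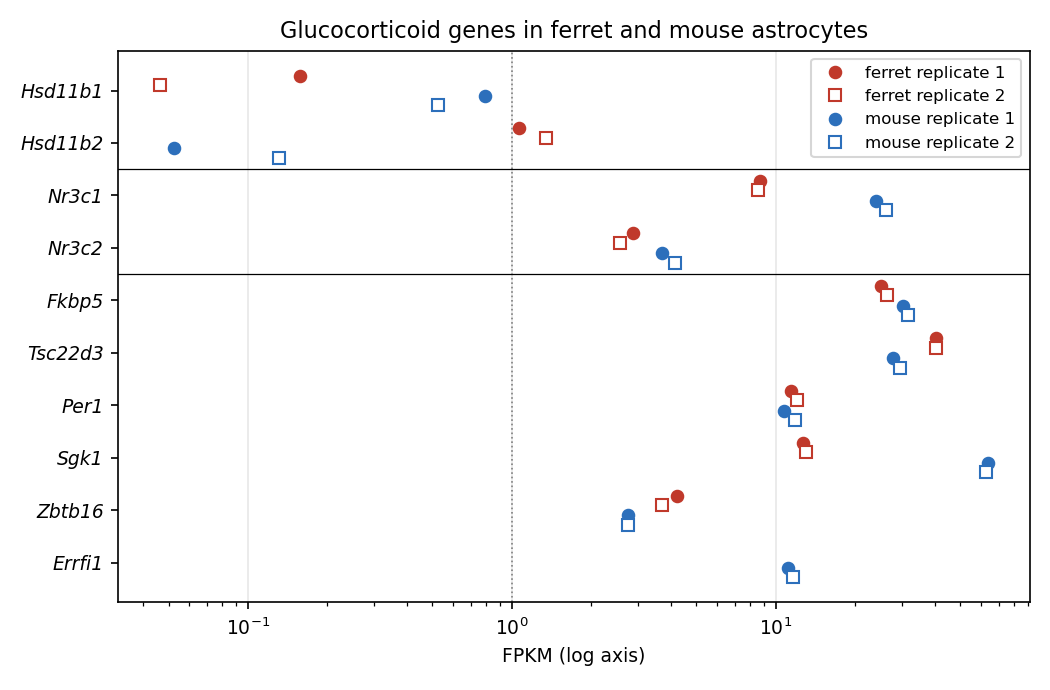
FPKM of the 10 genes (horizontal log axis) in the 2 ferret (red) and 2 mouse (blue) libraries, 1 point per library, with lines between enzymes, receptors and targets and a dotted line at 1 FPKM. Sgk1 lies at 12.65 and 13.01 in ferret and at 63.8 and 62.5 in mouse astrocytes, the Per1 points overlap, and the 2 enzymes lie in opposite order in the 2 species.

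Both interconverting enzymes were present at very low levels, and the type that was higher differed between the species. Hsd11b2, whose product inactivates the hormone, had 1.06 and 1.34 FPKM in ferret replicates 1 and 2, and 0.0522 and 0.131 in mouse replicates 1 and 2. The lower ferret value was well above the higher mouse value. The means were 1.201 ± 0.199 FPKM (SD, n = 2) and 0.0915 ± 0.0555 (SD, n = 2), a ratio of 13.1 that became 23.0 without mouse replicate 2 and 9.18 without mouse replicate 1. On the log2(FPKM + 1) scale, which understates differences of low genes, the difference was 1.01, with a standard error of 0.09 and a limma adjusted p of 2.41e-06, just past the limit of 1. Hsd11b2 met the limit of 1 FPKM only through the ferret libraries, in which it was the higher, and without that limit its adjusted p by limma was 0.00219 at the same difference. The call was lost without ferret replicate 2, at 0.92, and without mouse replicate 1, at 0.96, while with a pseudocount of 0.1 the difference was 2.79. In the mouse the gene spans bases 105518755 to 105523988 of GRCm38 chromosome 8 (plus strand), with 5 exonic regions.

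Hsd11b1, whose product activates the hormone, had 0.158 and 0.0463 FPKM in ferret replicates 1 and 2, and 0.794 and 0.523 in mouse replicates 1 and 2. Both mouse libraries were above both ferret libraries, and all 4 values were under 1. The ferret mean was 0.102 ± 0.0789 FPKM (SD, n = 2) and the mouse mean 0.658 ± 0.191 (SD, n = 2), a ratio of 6.45 for mouse over ferret that became 14.2 without ferret replicate 1 and 4.17 without ferret replicate 2. Without the limit on low values, Hsd11b1 had a log2 difference of -0.59, with a standard error of 0.111 and a limma adjusted p of 0.0168, under the size needed for a call, and 75.2% of the 13373 genes of that fit passed the adjusted p alone. The read counts behind these FPKM were not used here, so no counting interval is given for values this low. The mouse gene spans bases 193221634 to 193264075 of GRCm38 chromosome 1 (minus strand), with 10 exonic regions, and shares its span with Lamb3 and 4930570N18Rik on the other strand and with Gm38118 on the same strand. Whether reads were counted by strand was not given in the sources used here.

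Within a library, the ratio of Hsd11b1 to Hsd11b2 is not changed by setting a common total or the average total. Quantile normalization can change it, and the ratios here are of FPKM as deposited. It was 0.149 and 0.0345 in ferret replicates 1 and 2, and 15.2 and 3.999 in mouse replicates 1 and 2. The type 2 transcript was therefore the more abundant of the pair in both ferret libraries and the type 1 transcript in both mouse libraries. These ratios rest on values under 1 FPKM on at least one side in each species.

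H6pd, the enzyme of the endoplasmic reticulum that supplies the cofactor for hormone regeneration, stood at 11.6 and 12.5 FPKM in ferret replicates 1 and 2, and at 12.5 and 12.7 in mouse replicates 1 and 2. Its log2 difference was -0.06, with a standard error of 0.069 and a limma adjusted p of 0.398, and turned to between 0.30 and 0.35 under the other 3 scalings. It was picked from a list of 16 steroid enzymes and transport genes after its values were seen. Of the 10 genes of that list that were tested, 5 were called lower and 0 higher in ferret astrocytes by limma, and 4 of the 5 were called lower under every scaling tried, against 30.1% lower and 13.1% higher over all genes. At an adjusted p alone, 7 were lower and 1 was higher, against 56.2% and 32.4%. Cyb5a, which encodes the electron carrier cytochrome b5, had 16.1 and 16.4 FPKM in ferret and 179 and 188 in mouse astrocytes. Tspo, a mitochondrial outer membrane protein that binds cholesterol, had 7.94 and 9.15 in ferret and 84.6 and 87.5 in mouse astrocytes. The log2 differences of these genes were -3.42 for Cyb5a and -3.19 for Tspo. Hsd3b7, an enzyme of sterol metabolism, Por, the electron donor of cytochrome P450 enzymes, and Hsd17b12, an enzyme of fatty acid elongation, followed with -1.96, -1.66 and -1.35, and Hsd17b12 was no longer called under either rescaling.

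The glucocorticoid receptor was the more abundant of the 2 receptors in both species and lower in ferret astrocytes. Nr3c1 had 8.73 and 8.57 FPKM in ferret replicates 1 and 2, and 23.9 and 26.2 in mouse replicates 1 and 2. The groups were far apart, and the ferret duplicates lay closer together than the mouse duplicates. The mouse mean was 2.89 times the ferret mean, a log2 difference of -1.43, with a standard error of 0.069 and a limma adjusted p of 2.33e-08. With a common total, the average total and quantile normalization it was -1.12, -1.07 and -1.02, so the call held under each scaling, by little. The libraries hold RNA of whole cultures, so fewer cells that carry a transcript and less of it per cell cannot be told apart.

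The mineralocorticoid receptor differed far less. Nr3c2 had 2.87 and 2.57 FPKM in ferret replicates 1 and 2, and 3.69 and 4.15 in mouse replicates 1 and 2. Both ferret values were below both mouse values, with means of 2.72 ± 0.210 (SD, n = 2) and 3.92 ± 0.323 (SD, n = 2). The log2 difference of -0.40, with a standard error of 0.084 and a limma adjusted p of 0.00128, lay near the median of all genes, was under the size needed for a call, and changed sign to 0.03 after quantile normalization. The ratio of Nr3c1 to Nr3c2 was 3.04 and 3.33 in ferret replicates 1 and 2, and 6.47 and 6.30 in mouse replicates 1 and 2. The excess of glucocorticoid over mineralocorticoid receptor transcript was thus larger in both mouse libraries, on the gene models of each species. The mouse Nr3c2 gene spans bases 76899442 to 77245012 of GRCm38 chromosome 8 (plus strand), with 13 exonic regions, and shares its span with 1 annotated gene on the same strand and 2 on the other.

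Of the chaperones that fold and hold the receptors, 7 of 12 listed genes had values in both species, and 2 of these were called lower and 0 higher in ferret astrocytes by limma (6 lower and 1 higher at an adjusted p alone), where 30.1% of all genes were called lower and 13.1% higher (56.2% and 32.4% at an adjusted p alone). Hsp90ab1, the constitutive HSP90 that keeps the receptor ready for hormone, had 208 and 231 FPKM in ferret and 612 and 619 in mouse astrocytes. Its log2 difference was -1.48 and stayed at -1.09 or lower under each scaling. Cdc37, an HSP90 partner that is best known for loading kinases, had a log2 difference of -1.20 and was not called under the other 3 scalings, at -0.83, -0.81 and -0.85. Hspa4, a nucleotide exchange factor of the HSP70 cycle, stood at -0.94 and was not called. Of the 10 coregulators with values in both species, which carry the receptor's signal to chromatin, only Ncor1 was called with FPKM as deposited. At an adjusted p alone, 5 coregulators were lower and 3 higher in ferret astrocytes. Crebbp, named after its values were seen, was called higher with a common total, at 1.06, and after quantile normalization, at 1.04. Ncor1, a corepressor, had 15.0 and 15.6 FPKM in ferret and 41.5 and 46.6 in mouse astrocytes, a log2 difference of -1.46. The median log2 difference was -0.83 over the chaperones and -0.13 over the coregulators, against -0.35 over all genes, and the median over the coregulators changed sign under the other scalings, to between 0.23 and 0.27.

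Among the target genes, Sgk1 separated the species most. Sgk1 encodes a serum- and glucocorticoid-regulated kinase that controls ion channels and transporters. It had 12.65 and 13.01 FPKM in ferret replicates 1 and 2, and 63.8 and 62.5 in mouse replicates 1 and 2. The duplicates agreed closely in both species, and the mouse mean of 63.2 ± 0.8999 (SD, n = 2) was 4.92 times the ferret mean of 12.8 ± 0.254 (SD, n = 2). The log2 difference was -2.21, with a standard error of 0.059 and a limma adjusted p of 4.35e-10, and lay between -1.89 and -1.84 under the other 3 scalings. In the mouse the gene spans bases 21882184 to 21999903 of GRCm38 chromosome 10 (plus strand), with 18 exonic regions and 13 annotated transcripts.

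Tsc22d3 and Fkbp5, the targets most often read as a sign of glucocorticoid receptor activity, did not follow Sgk1. Tsc22d3 encodes GILZ, a leucine zipper protein that dampens inflammatory transcription, and had 40.3 and 40.4 FPKM in ferret replicates 1 and 2, and 27.9 and 29.5 in mouse replicates 1 and 2. Both ferret values were above both mouse values, by a ratio of means of 1.41. The log2 difference of 0.48, with a standard error of 0.060 and a limma adjusted p of 3.31e-05, was under the size needed for a call, and lay between 0.85 and 0.88 under the other 3 scalings. The mouse gene spans bases 140539528 to 140600659 of GRCm38 chromosome X (minus strand), with 6 exonic regions.

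Fkbp5 encodes FKBP51, an HSP90 co-chaperone that lowers the receptor's affinity for hormone and so closes a feedback loop. It had 25.0 and 26.4 FPKM in ferret replicates 1 and 2, and 30.2 and 31.8 in mouse replicates 1 and 2. Both ferret values were below both mouse values, but the step between the groups was small. The log2 difference was -0.26, with a standard error of 0.063 and a limma adjusted p of 0.00303, and it changed sign to 0.12, 0.12 and 0.13 under the other 3 scalings, so these data give it no direction. The mouse gene spans bases 28399094 to 28517527 of GRCm38 chromosome 17 (minus strand), with 21 exonic regions, and shares its span with 2 annotated genes on the same strand and 2 on the other.

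Per1, a component of the circadian clock that glucocorticoids also induce directly, had 11.5 and 12.0 FPKM in ferret replicates 1 and 2, and 10.8 and 11.8 in mouse replicates 1 and 2. It was the only gene of the 9 whose libraries overlapped between the species. The log2 difference was 0.05 (95% interval -0.11 to 0.21, adjusted p = 0.526 by limma) with FPKM as deposited, and 0.44, 0.41 and 0.47 under the other 3 scalings. Zbtb16, which encodes the zinc finger repressor PLZF, had 4.21 and 3.70 FPKM in ferret and 2.76 and 2.74 in mouse astrocytes. The ferret libraries were above the mouse libraries, at a log2 difference of 0.40, with a standard error of 0.081 and a limma adjusted p of 0.00108, that was not called under any of the 4 scalings. Errfi1 encodes MIG6, a feedback inhibitor of the EGF receptor, and had 11.1 and 11.6 FPKM in the 2 mouse libraries, next to mouse Per1 in level. No ferret value of Errfi1 was analysed here.

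The plot of the differences under 4 scalings shows which of these statements depend on the scaling. Each of the 8 members moved up with the median of all genes. Hsd11b2 moved from 1.01 to 2.25 with a common total, to 1.14 with the average total and to 1.24 after quantile normalization. Hsd11b2, Nr3c1 and Sgk1 kept their calls under each of the 4 scalings, and the other 5 genes were not called under any.

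**Figure D2:**
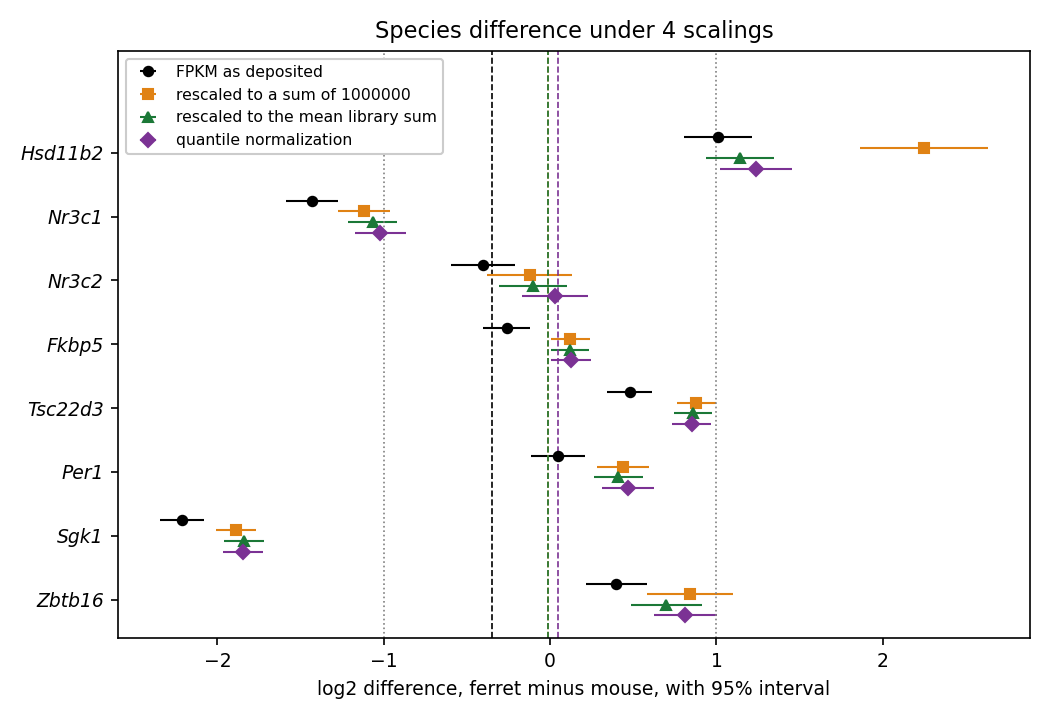
log2 difference (ferret minus mouse, horizontal axis) of the 8 tested genes with its 95% interval from limma, under FPKM as deposited (black), with a common total of 1000000 (orange), with the average total (green) and quantile normalization (purple). Dashed lines mark the median of all 10204 genes in each setting and dotted lines the limits of -1 and 1; Sgk1 and Nr3c1 lie below -1 and Hsd11b2 above 1 in each setting, while Fkbp5 and Nr3c2 lie on both sides of 0.

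The order of the genes within a species, which no scaling of a library can change, differed at the top. In ferret astrocytes the order of mean FPKM was Tsc22d3, Fkbp5, Sgk1, Per1, Nr3c1, Zbtb16, Nr3c2, Hsd11b2 and Hsd11b1, and the duplicates of neighbours in this order did not overlap. In mouse astrocytes it was Sgk1, Fkbp5, Tsc22d3, Nr3c1, Errfi1, Per1, Nr3c2, Zbtb16, Hsd11b1 and Hsd11b2, and only Errfi1 and Per1 overlapped. Sgk1 stood at percentile 72.2 of the shared genes in ferret and 93.0 in mouse astrocytes. Nr3c1 stood at 63.3 and 80.1. Tsc22d3 stood at 91.2 in ferret and 82.5 in mouse astrocytes, and Fkbp5 at 85.4 and 84.0. The plot of these percentiles shows Sgk1 and Nr3c1 rising steeply from ferret to mouse while Fkbp5 and Nr3c2 run almost level.

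**Figure D3:**
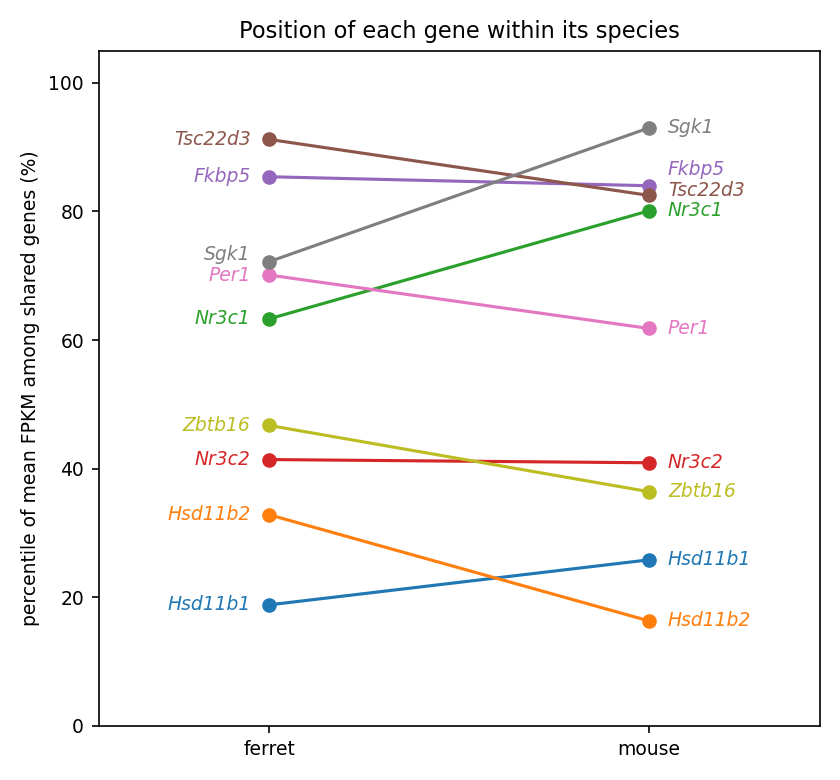
Percentile of the mean FPKM of 9 genes among the 13373 shared genes (vertical axis) in ferret and in mouse astrocytes, each gene a line between 2 points. Sgk1 runs from 72.2 to 93.0, Hsd11b2 from 32.8 down to 16.3, and Fkbp5 from 85.4 to 84.0.

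Ratios between targets within a library, which were chosen after the values were seen, give the same order without any scaling. Sgk1 was 0.506 and 0.493 times Fkbp5 in the 2 ferret libraries and 2.11 and 1.97 times Fkbp5 in the 2 mouse libraries. Tsc22d3 was 3.18 and 3.11 times Sgk1 in ferret and 0.437 and 0.472 times Sgk1 in mouse astrocytes. The targets therefore stood in unequal proportion in the 2 species, with Sgk1 low relative to Fkbp5 and Tsc22d3 in both ferret libraries. Each species was quantified on its own gene models, so species and gene model cannot be told apart in these ratios.

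A further list of 30 genes that glucocorticoids are known to induce in one tissue or another gave 22 tested genes, of which 2 were called higher and 10 lower in ferret astrocytes (9.09% and 45.5%, Lcn2 among the latter, against 13.1% and 30.1% of all genes). Under each of the other 3 scalings 3 were called higher and 6 lower (13.6% and 27.3%), against 19.1% to 21.5% higher and 20.4% to 24.9% lower over all genes. Its median log2 difference was -0.89, or -0.78 without Lcn2, against -0.35 over all genes. Angptl4, a secreted inhibitor of lipoprotein lipase, had 186 and 210.3 FPKM in ferret and 6.600 and 6.411 in mouse astrocytes, a log2 difference of 4.73, with a standard error of 0.071 and a limma adjusted p of 1.94e-11. Map3k6, a stress kinase, was called higher at 1.00, and this call was lost without ferret replicate 2 (0.91) and without mouse replicate 2 (0.95). Dusp1, a phosphatase that switches off MAP kinases, had 2.697 and 2.498 FPKM in ferret and 17.96 and 16.8 in mouse astrocytes, a log2 difference of -2.35. Glul, the glutamine synthetase of astrocytes, had 145 and 160.4 in ferret and 520 and 566 in mouse astrocytes, a difference of -1.82.

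Gpd1, Txnip and Nedd9 were also lower in ferret astrocytes under each of the 4 scalings, by log2 differences of -1.62, -1.53 and -1.46 with FPKM as deposited. Gpd1 makes glycerol phosphate, Txnip binds thioredoxin and Nedd9 is a scaffold of focal adhesions. Lcn2, a secreted iron carrier that inflammatory signals induce as well, had 459 and 462 FPKM in the mouse libraries but is listed at 0 in ferret replicates 1 and 2. Klf9, a transcription factor widely used as a marker of receptor activity and named here after its values were seen, had 42.5 and 43.3 FPKM in ferret and 44.0 and 44.9 in mouse astrocytes. Its difference of -0.05 (adjusted p = 0.425 by limma) turned to between 0.33 and 0.34 under the other 3 scalings. The induced genes thus ran in both directions, with Klf9 and Fkbp5 near equal.

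Of 29 tested relatives and partners of the target genes, 7 were called higher and 14 lower in ferret astrocytes (24.1% and 48.3%, against 13.1% and 30.1% of all genes), and 7 and 9 were called so under all 4 scalings. In the family of Tsc22d3, Tsc22d1 had 29.2 and 28.9 FPKM in ferret and 244 and 252 in mouse astrocytes, and Tsc22d4 had 16.8 and 17.98 in ferret and 171 and 180.4 in mouse astrocytes. Both were called lower under each scaling, by log2 differences of -3.05 and -3.26 with FPKM as deposited, opposite in sign to Tsc22d3. Tsc22d2 stood at -0.23 and turned to between 0.11 and 0.19 under the other scalings. Tsc22d3 was the most abundant member of the 4 in ferret astrocytes, whereas Tsc22d1 and Tsc22d4 exceeded it in mouse astrocytes.

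Of 12 clock genes other than Per1, 1 was called higher and 7 lower in ferret astrocytes (8.33% and 58.3%, against 13.1% and 30.1% of all genes), and 1 and 3 were called so under all 4 scalings. Npas2, a partner of the clock activator, was higher, with 8.73 and 9.36 FPKM in ferret and 1.196 and 0.880 in mouse astrocytes. Nr1d1, a clock repressor, had 3.96 and 4.29 FPKM in ferret and 24.1 and 25.0 in mouse astrocytes, and Dbp, an output factor of the clock, had a log2 difference of -1.57. Per2, a close relative of Per1, had 0.459 and 0.466 FPKM in ferret and 2.97 and 2.73 in mouse astrocytes, a difference of -1.40. These 4 genes were called under each scaling, and Per2 met the limit of 1 FPKM only through the mouse libraries. Cry2, a partner of the period proteins, was lower by a log2 difference of -1.36 and was not called after quantile normalization, at -0.95. Cry1, its close relative, ran the other way and is named after its values were seen, with 0.91 as deposited, short of a call, and 1.46, 1.20 and 1.31 under the other 3 scalings, where it was called higher. The time of day of the harvest was not given in the sources used here.

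Of 6 tested relatives and substrates of Sgk1, 3 were called lower and 0 higher by limma (4 lower and 1 higher at an adjusted p alone), against 30.1% lower and 13.1% higher over all genes, and 2 of the 3 were called under all 4 scalings. Ndrg1, a substrate whose phosphorylation reports the kinase, had 19.5 and 18.9 FPKM in ferret and 150 and 159 in mouse astrocytes, a log2 difference of -2.94. Nedd4l, a ubiquitin ligase that Sgk1 restrains, had 2.04 and 2.07 in ferret and 9.71 and 11.4 in mouse astrocytes, a difference of -1.91.

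The receptor family that Errfi1 restrains was sharply divided. Of 8 tested receptors and ligands, 6 were called higher and 2 lower in ferret (75% and 25%, against 13.1% and 30.1% of all genes). All were called under each scaling. Erbb3, Erbb4 and Btc met the limit of 1 FPKM only through the ferret libraries, and Ereg only through the mouse libraries. A gene that passes in this way is high in the species that admits it, which raises these shares. Egfr, which with Erbb4 is a receptor for the growth factor in the medium, had 2.97 and 2.50 FPKM in ferret and 19.6 and 20.3 in mouse astrocytes, a log2 difference of -2.49. Erbb3 had 18.4 and 21.1 in ferret and 0.319 and 0.325 in mouse astrocytes, and Erbb4 had 6.78 and 6.74 in ferret and 0.110 and 0.105 in mouse astrocytes. Erbb3 and Erbb4, which bind neuregulins, stood near 0 in the mouse libraries, so Egfr and Erbb4 ran in opposite directions. Erbb2, the shared partner of the family, was higher in ferret astrocytes by a log2 difference of 1.21. The ligand genes Hbegf, Tgfa and Btc were higher in ferret astrocytes by log2 differences of 2.42, 1.32 and 2.22, and Ereg was lower by one of -1.85. Hbegf, which encodes the same factor that was added to the medium as protein, had 236 and 226 FPKM in ferret and 43.8 and 40.9 in mouse astrocytes.

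**Figure D4:**
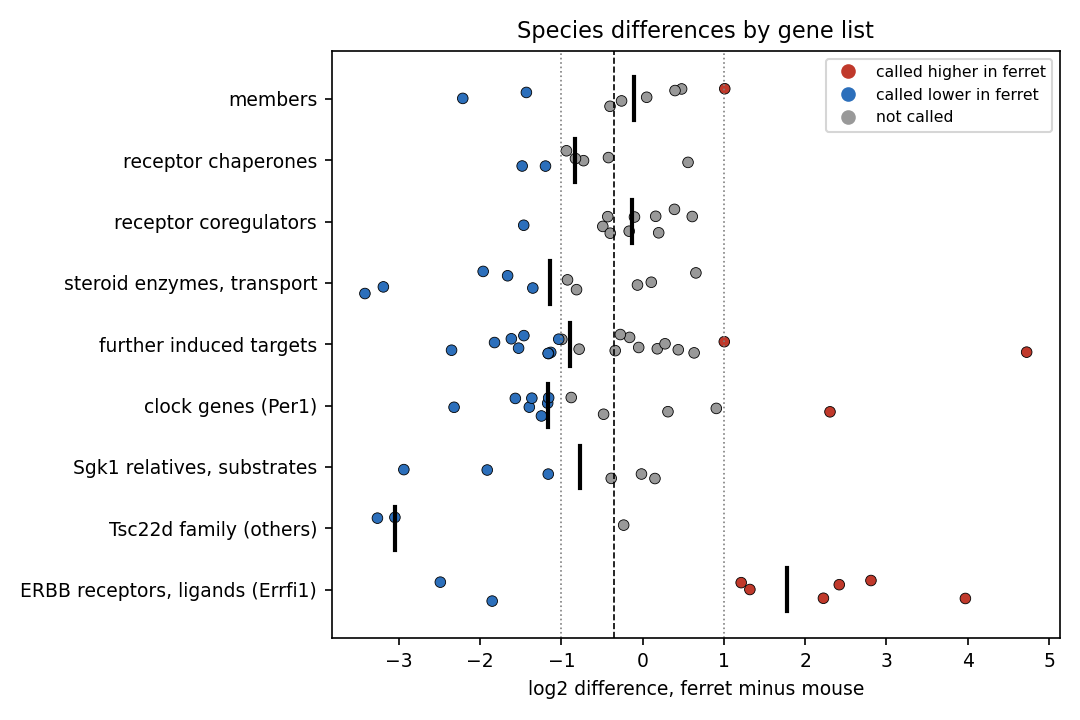
log2 difference (ferret minus mouse, horizontal axis) of each tested gene, 1 point per gene, in the members and 8 related groups, coloured by call, with a black bar at the group's median and a dashed line at the median of all genes (-0.35). Lcn2, listed at 0 in ferret astrocytes, is left out; the ERBB receptors and ligands stand at a median of 1.77, the Tsc22d relatives at -3.05 and the clock genes at -1.16.

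The cultures also differed in markers of other cell types, which are summed here over the genes with values in both species. Astrocyte markers were present in both species, with a summed FPKM over 10 genes of 3576 and 3674 in the ferret and 3258 and 3530 in the mouse libraries, although Slc1a2, a glutamate transporter, stood at 0.133 and 0.178 in ferret and at 47.1 and 51.8 in mouse astrocytes. Most of these sums was Gfap and Aldoc, and the other 8 genes summed to 476 and 452 in ferret and 913 and 969 in mouse astrocytes. With FPKM as deposited, 1 of the 10 genes was called higher and 6 lower in ferret astrocytes, against 13.1% and 30.1% of all genes. These shares are also the background of the marker counts with FPKM as deposited that follow. Under each of the other 3 scalings 2 of the 10 were called higher and 4 lower. The shares of all genes there were 19.1% to 21.5% higher and 20.4% to 24.9% lower, also for the marker counts that follow. The most abundant of the 10 genes was Aldoc in ferret and Gfap in mouse astrocytes. Microglial markers summed over 15 genes to 74.1 and 73.8 FPKM in ferret and 932 and 916 in mouse astrocytes, with 14 called lower in ferret astrocytes. In ferret astrocytes 11 of the 15 had a mean under 1 FPKM, and the defining marker Cx3cr1 is listed at 0 in both ferret libraries. In the mouse Tyrobp was the most abundant of these 15, at 146 FPKM, and C1qa, which has a mouse value alone, stood at 193 in both libraries.

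Fibroblast markers summed over 12 genes to 183 and 162 FPKM in ferret and 2041 and 1996 in mouse astrocytes, with 11 called lower in ferret astrocytes. The most abundant were Col1a2 at 79.6 in ferret and Serpinf1 at 642 in mouse astrocytes, and Mgp is listed at 0 in both ferret libraries. Pdgfra ran the other way, at a log2 difference of 0.77 that was not called. Under the other 3 scalings it was called higher in ferret astrocytes, at 1.36, 1.039 and 1.175. Oligodendrocyte lineage markers summed over 10 genes to 167 and 186 in ferret and 67.9 and 68.4 in mouse astrocytes. Of 7 tested, 3 were called higher in ferret astrocytes, and 5, 4 and 4 under the other 3 scalings, with Cnp the most abundant in both and Sox10 at 26.3 and 31.0 in ferret and 0.231 and 0.304 in mouse astrocytes. Olig2 and Cspg4, markers of progenitors in this lineage, ran the other way at log2 differences of -0.82 and -0.47, and Olig1, which has a mouse value alone, stood at 107 and 117 FPKM. Neuronal markers summed over 8 genes to 32.7 and 33.8 in ferret and 32.6 and 33.7 in mouse astrocytes, most of it Map2, and 4 of 5 tested were called higher in ferret astrocytes. Map2 itself was lower in ferret astrocytes, at a log2 difference of -0.68, and Stmn2, a neuronal marker with a mouse value alone, stood at 124 and 127 FPKM. Endothelial and mural markers summed over 9 genes to 16.9 and 16.2 in ferret and 50.3 and 48.9 in mouse astrocytes, with 1 of 4 tested called higher and 3 lower in ferret astrocytes. Kcnj8 was the most abundant in ferret and Pdgfrb in mouse astrocytes, and the defining endothelial marker Cdh5 is listed at 0 in both ferret libraries and stood at 22.0 and 22.5 in the mouse libraries. Pecam1, another, is listed at 0 in both ferret libraries and stood at 0.0407 and 0.0312 in the mouse libraries. With 4 libraries in 2 species, any gene higher in one species runs with every other gene higher there. The directions below therefore link no gene to a cell type. Sgk1, Nr3c1 and Hsd11b1 were higher in mouse cultures, as were microglial markers and fibroblast markers other than Pdgfra. Hsd11b1 was under 1 FPKM in all 4 libraries and did not meet the limit for the test. Also higher in mouse cultures were 4 of 10 astrocyte markers, called so under all 4 scalings, and 3 of 4 tested endothelial and mural markers. The astrocyte marker S100b ran the other way, with 247 and 244 FPKM in ferret and 57.3 and 63.1 in mouse astrocytes. It was called higher in ferret astrocytes under all 4 scalings. Aldoc was also higher there and was called so under the other 3 scalings. Hsd11b2 was higher in ferret cultures, as were the 3 oligodendrocyte and 4 neuronal markers called higher there under all 4 scalings. Of these markers, Sox10, Dcx, Nefl and Gad1 met the limit of 1 FPKM only through the ferret libraries. Olig2, Cspg4 and Map2 were lower in ferret cultures, as were Enpp6, Rbfox3 and Slc17a7. The last 3 were under 1 FPKM in every library and were not tested. The part of these cell types in the differences was not tested.

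**Figure D5:**
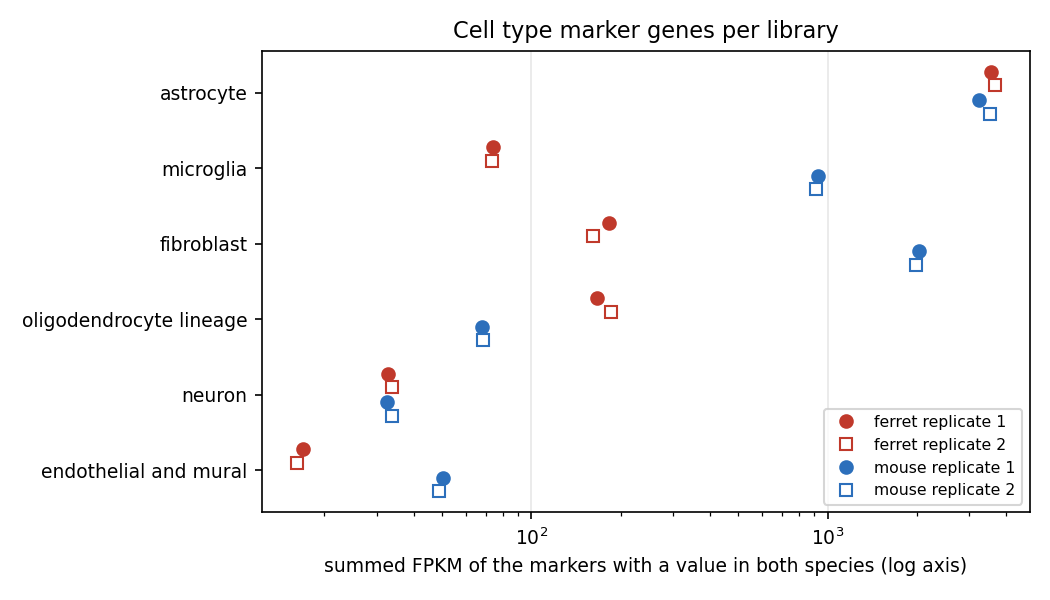
Summed FPKM (horizontal log axis) of the markers of 6 cell types with values in both species, in the 2 ferret (red) and 2 mouse (blue) libraries, 1 point per library. Microglial and fibroblast sums are higher in both mouse libraries (932 and 2041 FPKM in mouse replicate 1), the oligodendrocyte lineage sum, which lacks Olig1, is higher in both ferret libraries, and the neuronal sums overlap.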

How the data were processed

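The authors aligned the reads with STAR 2.7.0f and quantified them with Cufflinks 2.2.1. The deposited values are FPKM per gene, on the Ensembl 99 annotation of each species (ferret MusPutFur1.0, mouse GRCm38). Reads were polyA-selected with a stranded kit. FPKM holds no counts, and the study's read counts were not used here. The commonest ratio among the lowest values sets ferret replicate 1 at 1.17 times the depth of replicate 2, and mouse replicate 1 at 0.834 times that of replicate 2.

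Symbols were matched in upper case, and a symbol with several rows took the row with the highest species mean. Log2(FPKM + 1) was fitted with limma 3.58.1 (R 4.3.3, empirical Bayes with trend) over 10204 genes with a mean of at least 1 FPKM in either species, a limit that a gene could pass through the species in which it was high. P-values were adjusted by Benjamini-Hochberg over all of them. The fit was tested on simulated data. Scaling alternatives used the same 10204 genes.

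Members, lists and tests were chosen with earlier results of these data known. Genes named from a list were those called or among its 4 largest differences, or markers of other cells, and exceptions are stated. Mouse positions are from GENCODE M21 (GRCm38), another release than the authors' annotation. A ferret genome and sequences were not used here. Some genes of the lists are not reported here.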

Additional observations from a re-analysis of the deposited data

How the results depend on the processing

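Of the 9 genes with values in both species, Hsd11b1 could be fitted only without the limit on low values. For the others, the direction and the side of the call held in 97 of 104 repeats, and the exceptions follow. Nr3c2 stood at 0.028 after quantile normalization. Fkbp5 stood at 0.12 after rescaling to a sum of 1000000, at 0.12 after rescaling every library to the average sum and at 0.13 after quantile normalization. Per1 ranged from -0.012 to 0.11 and Hsd11b2 from 0.92 to 1.10 when each library was left out in turn. Among the genes named from lists, H6pd stood at 0.32, 0.30 and 0.35, Klf9 at 0.34, 0.33 and 0.33 and Tsc22d2 at 0.12, 0.11 and 0.19 under the same 3 scalings, in that order. The cause of each change was not tested beyond the scaling itself.

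Genes called higher in ferret astrocytes numbered 1336 with FPKM as deposited, 2197 after rescaling to a sum of 1000000 and 2080 after quantile normalization, and genes called lower 3069, 2536 and 2082. The share of calls that were higher thus moved from 30.3% to 46.4% and 50.0%. The count of members called higher ranged from 0 to 1 with each library left out, and of further induced targets called higher from 1 to 2. Further induced targets called lower numbered 6 after either rescaling and after quantile normalization, against 10. Target gene relatives called lower numbered 9 after quantile normalization, against 14. Receptor machinery had 1 gene called higher (against 0) after rescaling to a sum of 1000000 and after quantile normalization, and steroid enzymes and transport genes 1 (against 0) after that rescaling and with a pseudocount of 0.1.

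The replicate numbers are shared by the species, and the deviations of same-numbered libraries correlated at 0.01 across genes. This value cannot exclude that same-numbered libraries were prepared together, and the main fit did not pair them. With the replicate number as a block, 1342 genes were called higher and 3072 lower, 1 and 2 of them members. Each fit without a library leaves 1 sample in a species, which is assumed to vary like the other species.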

Other observations

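Pgr, the nuclear receptor for the progesterone in the medium, had 0.0341 and 0.0133 FPKM in ferret and 0.466 and 0.557 in mouse astrocytes and was too low for the test. Esr2 is listed at 0 in both ferret libraries and stood at 0.225 and 0.203 in the mouse libraries.

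Some genes of the lists had a mouse value alone, so they enter no comparison. Mt1 and Mt2, the metallothioneins that glucocorticoids and metals induce, had 1844 and 2068 FPKM and 1398 and 1566 FPKM in the 2 mouse libraries. Hsp90aa1, the inducible HSP90, had 433 and 449, and Hspa8, the constitutive HSP70 chaperone, had 705 and 732. Sult1a1, a sulfotransferase, had 21.5 and 23.2.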
